A study of Homo sapiens with 4 samples.

Results

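The cytosolic ribosomal proteins are the protein components of the ribosome that translates messenger RNA in the cytoplasm. They were taken from the deposited gene table as its protein-coding genes with a symbol made of RPL or RPS and a number, with or without a short suffix, together with RPLP0, RPLP1, RPLP2, RPSA and RPL36AL and without RPS27L. This naming rule gave 84 of the 58735 genes in the table, 53 of the large (60S) subunit and 31 of the small (40S) subunit. The rule used no measured value.

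RNA sequencing was done on Myla cells, a line derived from mycosis fungoides, a T cell lymphoma of the skin, whose genotype is labelled WT. The shFOXM1 group (2 libraries) was transduced with a lentivirus carrying a short hairpin RNA against FOXM1, a transcription factor of dividing cells, and the shControl group (2 libraries) with the same kind of virus carrying a scrambled hairpin. In both groups 10 µL of virus medium went onto the cells in 1 mL of culture, the medium was changed after 24 h and RNA was taken after a further 72 h. Neither the number of hairpins behind the 2 shFOXM1 libraries nor whether they came from separate cultures is given in the labels, so the spread between libraries may be partly technical, or may include a difference between hairpins.

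Each ribosome holds a single copy of nearly every one of these proteins, and the cell makes them in matched amounts from genes scattered over the genome. Most of their messenger RNAs begin with a 5′ terminal oligopyrimidine (TOP) tract, a C followed by a run of C and T, through which the mTOR kinase and the protein LARP1 control how strongly they are translated. A few of the genes have paralogs that are used in particular tissues or states, and mutations in several of the genes cause Diamond-Blackfan anaemia, a failure of red cell production. Transcripts of this family are among the most abundant in dividing cells, lymphoid lines included.

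The level used below is FPKM, the fragments of a gene scaled to its length and to the depth of the library. The 4 libraries held 15017728 and 14680094 reads in shFOXM1 and 14147084 and 14778639 reads in shControl, recovered as whole numbers from FPKM and gene length. The depth implied by the FPKM scaling departed from these reads by -1.44% in shFOXM1 1 and 3.80% in shFOXM1 2. In shControl 1 and shControl 2 it departed by 0.319% and -0.173%. FOXM1 itself had 9.27 and 5.59 FPKM in shFOXM1, against 26.5 and 27.6 FPKM in shControl. Of 6 T cell markers, CD3D, CD2, TRAC and CD3G were at 1 FPKM or above on average, CD3E was near 0 and CD4 was at 0 in every library. Most markers of other cell types were under 1 FPKM. At 1 FPKM or above were 1 of 8 monocyte and 2 of 8 B or plasma cell genes. So were 2 of 8 stromal or endothelial and 3 of 8 keratinocyte genes. The B or plasma cell genes summed to 44.4 and 49.8 FPKM in shFOXM1, against 50.35 and 48.1 FPKM in shControl. The stromal or endothelial genes summed to 48.4 and 20.4 FPKM in shFOXM1, against 27.1 and 25.45 FPKM in shControl. The part of these markers in the results was not tested. The 2 shFOXM1 libraries stood farther apart than the 2 shControl libraries. The median absolute log2 difference between libraries of a group was 0.23 in shFOXM1 and 0.10 in shControl over the 12033 genes tested.

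No ribosomal protein gene passed the test for a difference between shFOXM1 and shControl, and the summed level of the family was a few percent lower in shFOXM1, with a sign that depended on the scaling. The test was limma on log2(FPKM + 1), with p-values adjusted by the Benjamini-Hochberg method over the 12033 genes that reached 1 FPKM in at least 2 libraries, and a threshold of 0.05. Of the 84 genes, 82 were tested. RPL10L had no reads in any library and RPL3L stayed under the filter. At the threshold 0 of the 82 were called, as were 0 of all genes tested (0% in either direction). At an unadjusted p under 0.05, limma gave 6 members as lower (8.99% of all genes tested were) and 1 as higher (8.82% of all genes). In bulk RNA, a smaller share of cells that make a transcript and less of that transcript per cell cannot be told apart.

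The direction of the small differences was uneven. By sign, 54 of the 82 members were lower in shFOXM1 and 28 higher, while 50.1% of all genes tested were lower and 49.9% higher. For 35 members neither shFOXM1 library reached the lower of the controls, which is 42.7% of the members against 25.9% of all genes tested. For 9 members, or 11.0%, neither shFOXM1 library came down to the higher of the controls, against 27.3% of all genes. In the remaining 38 members the groups overlapped. These shares describe genes measured in the same 4 libraries, which are not independent of each other.

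Large and small subunit genes had medians of similar size. The median taken in shFOXM1 1 was below that in shFOXM1 2 for both, by more in the small subunit. Gene by gene, the median of shFOXM1 2 minus shFOXM1 1 was -0.01 in the large and 0.11 in the small subunit. The median log2 fold change was -0.06 over the 51 large subunit genes tested, with 33 lower and 18 higher, and -0.07 over the 31 small subunit genes, with 21 lower and 10 higher. The median over all genes tested was -0.00. Set against the shControl mean, the median large subunit gene stood at -0.08 in shFOXM1 1 and -0.05 in shFOXM1 2 on the log2 scale, whereas the median small subunit gene stood at -0.12 in shFOXM1 1 and -0.01 in shFOXM1 2. Of the small subunit genes, 23 of 31 were higher in shFOXM1 2 than in shFOXM1 1, against 25 of 51 large subunit genes. Under quantile normalization the split of the small subunit genes was 17 lower and 14 higher.

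**Figure D1:**
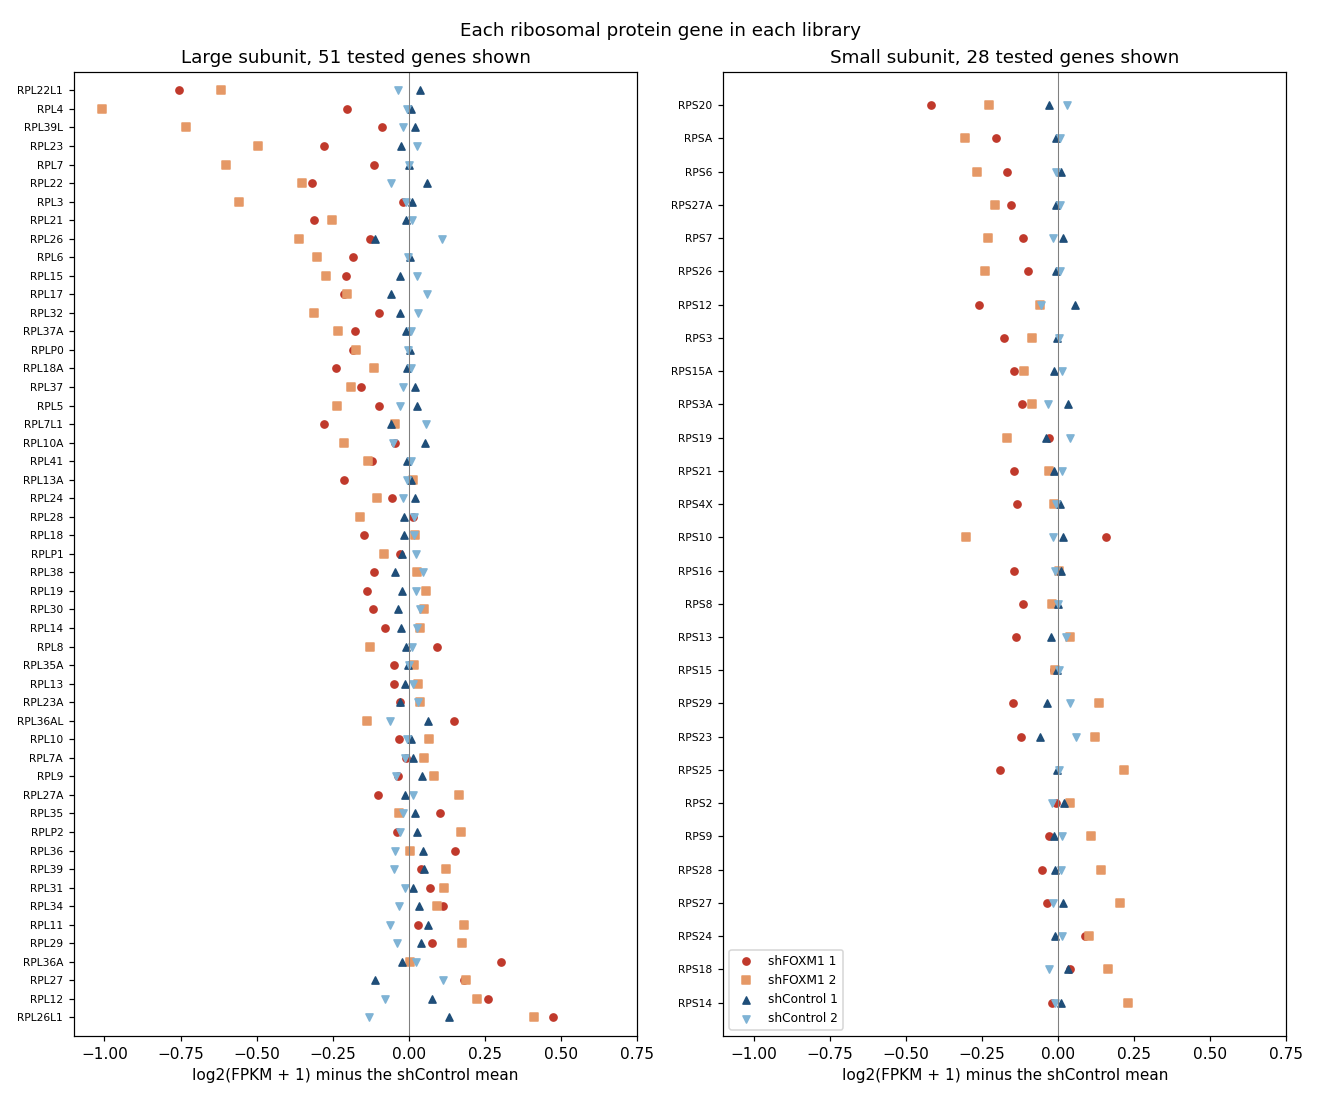
Each tested ribosomal protein gene in each library, as log2(FPKM + 1) minus the mean of the 2 shControl libraries, for 51 large subunit genes (left) and 28 of the 31 small subunit genes (right), ordered by log2 fold change with the lowest at the top. Circles and squares are the shFOXM1 libraries and triangles the shControl libraries; the controls lie close to 0 for most genes, while the shFOXM1 libraries reach -1.01 for RPL4 in shFOXM1 2 and 0.47 for RPL26L1 in shFOXM1 1.

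Summed over the family, ribosomal protein transcripts had 22144 and 22692 FPKM in shFOXM1, against 23444 and 23288 FPKM in shControl. Both shFOXM1 libraries lay below both controls. The difference was -4.06% of the shControl mean, with an exact two-sided permutation p = 0.333, the smallest that 2 libraries against 2 can give. The difference was -2.97% when scaled to recovered reads and turned to 0.466% under quantile normalization. As a share of all reads counted, the family took 6.39% and 6.75% in shFOXM1, against 6.93% and 6.88% in shControl.

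The large subunit sum was 13054 and 12812 FPKM in shFOXM1, against 13689 and 13611 FPKM in shControl. It was lower in both shFOXM1 libraries, with a difference of -5.25% (exact two-sided permutation p = 0.333), which was -1.57% under quantile normalization. The small subunit sum was 9090 and 9880 FPKM in shFOXM1, against 9754 and 9677 FPKM in shControl, a difference of -2.37% (exact two-sided permutation p = 1). Here shFOXM1 1 was the lowest and shFOXM1 2 the highest of the 4 libraries, and the sign of the difference turned to 3.34% under quantile normalization and to 1.69% without shFOXM1 1. The ratio of the large to the small subunit sum was 1.44 and 1.30 in shFOXM1, against 1.40 and 1.41 in shControl, with shFOXM1 on both sides of the controls.

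The transcription starts of the members were read for the TOP tract, which the shared control of these transcripts acts through. RefSeq start windows of build GRCh38.p14 were found for 67 members and not found for 14. The small subunit members not reported here by name were not searched. A tract was counted where the first transcribed base is C and at least 4 more pyrimidines (C or T) follow without a break, on the transcribed strand only. By this rule 47 of the 67 members (70.2%) had a tract at a listed start, against 1404 of 27305 genes (5.14%) in the same RefSeq windows. The share was 29 of 43 in the large and 18 of 24 in the small subunit, and tracts were 5 to 19 bases long with a median of 8. A match describes letters at an annotated start, and no match says only that these letters are not at that position.

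The windows below run from 20 bases before the start to 20 bases from it on, 5′ to 3′, and were picked to show members that were lower, higher and level beside each other, and the pair RPL26 and RPL26L1. Capitals mark the tract; the last 2 have none at the printed start.
RPL22L1: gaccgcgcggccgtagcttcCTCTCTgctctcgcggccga
RPL22: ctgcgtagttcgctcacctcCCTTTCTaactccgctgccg
RPL21: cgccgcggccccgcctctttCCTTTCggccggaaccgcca
RPSA: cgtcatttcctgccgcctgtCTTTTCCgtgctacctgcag
RPS6: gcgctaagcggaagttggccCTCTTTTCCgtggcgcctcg
RPL12: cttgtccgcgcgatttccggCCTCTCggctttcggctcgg
RPS14: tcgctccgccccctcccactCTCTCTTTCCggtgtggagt
RPL26: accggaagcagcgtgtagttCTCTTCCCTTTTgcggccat
RPL26L1: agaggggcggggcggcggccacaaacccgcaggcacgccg
RPL4: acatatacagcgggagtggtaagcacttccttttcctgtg
These windows lie, in the same order, at chr3:170870176-170870215 (minus strand), chr1:6199576-6199615 (minus strand), chr13:27251538-27251577 (plus strand), chr3:39406700-39406739 (plus strand), chr9:19380217-19380256 (minus strand), chr9:127451387-127451426 (minus strand), chr5:150449720-150449759 (minus strand), chr17:8383174-8383213 (minus strand), chr5:172958860-172958899 (plus strand) and chr15:66504836-66504875 (minus strand). RPL22L1, RPL22, RPL21, RPSA and RPS6 were lower and RPL12 was higher in both shFOXM1 libraries, while RPS14 overlapped, and all of these starts carry a tract of 6 to 10 bases. RPL26 has a tract of 12 bases and its paralog RPL26L1 has none at either of its 2 listed starts.

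Genes with and without a tract at a listed start both held lower and higher members. The 47 tested genes with a tract had a median log2 fold change of -0.04, with 28 lower by sign, and both shFOXM1 libraries lay below both controls in 16 of them and above in 6, where 25.9% of all genes tested lay below and 27.3% above. The 19 tested genes without one at a listed start had a median of -0.13, with 14 lower by sign and 10 below and 2 above both controls. RPL22L1, RPL21 and RPSA belong to the first group and RPL4, RPL3 and RPL26L1 to the second. The second group may hold genes with a tract nearby, as the RPL4 window has a run of C and T shortly after its listed start.

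RPL22L1, the paralog of the large subunit protein RPL22, had the lowest log2 fold change of the family. It had 47.1 and 51.9 FPKM in shFOXM1 (1622 and 1841 reads), against 82.2 and 78.1 FPKM in shControl (2712 and 2681 reads). Both shFOXM1 libraries were well below both controls, and the groups were far apart relative to the spread within either. The means were 49.5 ± 3.42 FPKM in shFOXM1 and 80.1 ± 2.85 FPKM in shControl (SD, n = 2 each), a ratio of 0.618. The log2 fold change was -0.68 (SE 0.11), with a limma adjusted p of 0.174. RPL22L1 was also the only member called both without shFOXM1 1 and without shFOXM1 2: its limma adjusted p was 0.0138 at a log2 fold change of -0.62 without shFOXM1 1 and 0.0334 at -0.75 without shFOXM1 2, in fits whose spread comes from the controls alone. Without shControl 1 or shControl 2 the limma adjusted p was 0.926 and 0.904. The gene (ENSG00000163584) lies on the minus strand at chr3:170864875-170870483 of GRCh38, and no pseudogene row in the table carries its name.

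RPL22, the parent gene, binds RNA in the 60S subunit and is known in mouse to act against expression of its paralog. It had 16.2 and 15.9 FPKM in shFOXM1, against 21.4 and 19.6 FPKM in shControl. Both shFOXM1 libraries were below both controls, so the 2 genes of the pair lay in the same direction. The log2 fold change of RPL22 was -0.33 (limma unadjusted p = 0.0306, adjusted p = 0.241). RPL22L1 made up 74.4% and 76.6% of the FPKM of the pair in shFOXM1, against 79.4% and 79.9% in shControl. Reads of named RPL22 pseudogenes made up 8.28% of the reads of RPL22 and its pseudogenes together, and how reads shared by such copies were counted is not given in the sources used here.

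RPL26L1 stood on the other side. This paralog of RPL26, a protein near the exit of the nascent chain tunnel, had 10.2 and 9.70 FPKM in shFOXM1 (175 and 172 reads), against 7.81 and 6.35 FPKM in shControl (129 and 109 reads). Both shFOXM1 libraries were above both controls, with a log2 fold change of 0.44 (SE 0.14; limma unadjusted p = 0.0257, adjusted p = 0.232). It was the 1 member with a higher value at an unadjusted p under 0.05. RPL26 had 33.4 and 28.3 FPKM in shFOXM1, against 33.8 and 39.6 FPKM in shControl, below both controls but only narrowly in shFOXM1 1. The share of RPL26L1 in the FPKM of the pair was 23.3% and 25.5% in shFOXM1, against 18.8% and 13.8% in shControl, and the 2 groups of shares did not overlap. RPL26 shares 14.3% of its exon bases with the same-strand gene AC135178.2, and its named pseudogenes hold 15.2% of the joint reads, so its level and the share are uncertain. The RPL26 log2 fold change was -0.24, and was -0.13 without shFOXM1 2 and -0.36 without shFOXM1 1.

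Of the other paralogs, RPL39L, a close copy of the tunnel protein RPL39, had 18.7 and 11.6 FPKM in shFOXM1, against 20.3 and 19.7 FPKM in shControl. Its parent RPL39 had 167 and 177 FPKM in shFOXM1, against 168 and 157 FPKM in shControl. RPL39L was lower in shFOXM1, mostly through shFOXM1 2, and RPL39 overlapped between groups. The log2 fold change of RPL39L was -0.41 (limma adjusted p = 0.41), -0.73 without shFOXM1 1 and -0.09 without shFOXM1 2. The share of RPL39L in its pair was 10.1% and 6.18% in shFOXM1, against 10.8% and 11.2% in shControl. RPL7L1, a relative of RPL7 linked to assembly of the 60S subunit, had 30.0 and 35.4 FPKM in shFOXM1, against 35.2 and 38.2 FPKM in shControl, and overlapped.

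RPL36AL, a copy of RPL36A that encodes a nearly identical protein, held almost all of the FPKM counted for its pair. Its share was 99.0% and 99.1% in shFOXM1, against 99.2% and 99.1% in shControl, with 224 and 184 FPKM in shFOXM1 and 211 and 194 FPKM in shControl. The groups overlapped for both measures. RPL36A shares 8.40% of its exon bases with the same-strand readthrough gene RPL36A-HNRNPH2 and its named pseudogenes hold 7.13% of the joint reads, so its level and this share are uncertain. RPL3L, the paralog of RPL3 of heart and skeletal muscle, was near absence with 8 and 2 reads in shFOXM1, against 9 and 6 reads in shControl. RPL10L, the testis paralog of the X-linked RPL10, had 0 reads in each library, while RPL10 had 255 and 273 FPKM in shFOXM1, against 262 and 259 FPKM in shControl.

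**Figure D2:**
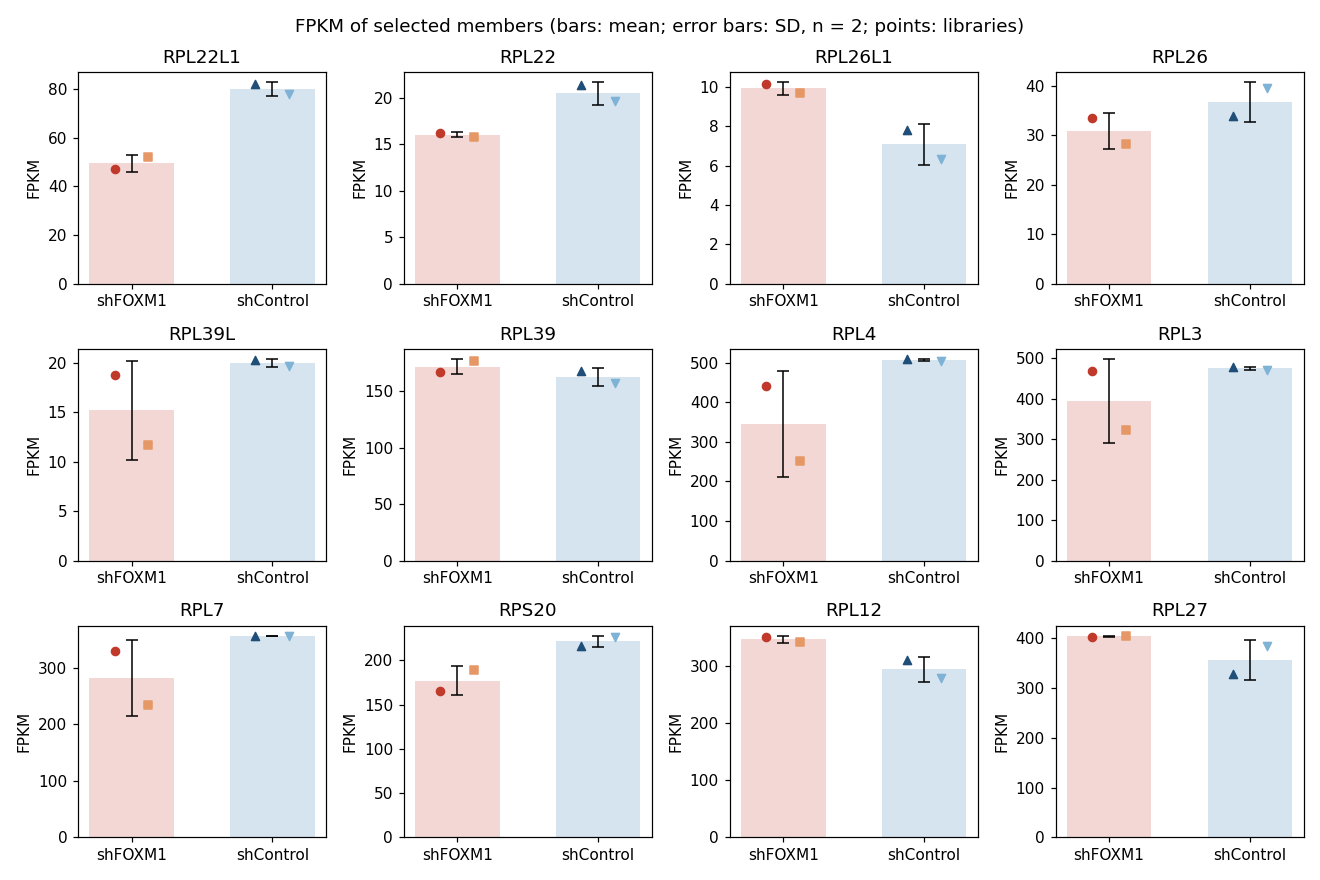
FPKM of 12 members in shFOXM1 (left bar) and shControl (right bar); bars are means, error bars SD (n = 2) and points libraries, and each panel has its own axis from 0. RPL22L1 and RPL22 are lower and RPL26L1, RPL12 and RPL27 higher in both shFOXM1 libraries, while RPL4, RPL3, RPL7 and RPL39L are low mainly in shFOXM1 2.

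A group of large subunit genes was low mainly in shFOXM1 2. RPL4, whose long extension lines the exit tunnel, had 440 and 251 FPKM in shFOXM1, against 509 and 505 FPKM in shControl. RPL3, which lies near the peptidyl transferase centre, had 468 and 322 FPKM in shFOXM1, against 478 and 471 FPKM in shControl. RPL7, a protein of the 60S subunit, had 329 and 235 FPKM in shFOXM1, against 357 and 357 FPKM in shControl. In all 3 genes shFOXM1 2 was far below the other libraries and shFOXM1 1 was close to or a little under the controls. The log2 fold change of RPL4 was -0.61 (SE 0.27; limma adjusted p = 0.33) with both libraries, -0.20 without shFOXM1 2 and -1.01 without shFOXM1 1. RPL3 moved likewise between -0.02 and -0.56, and RPL7 between -0.12 and -0.60. Over all tested members the median absolute log2 difference between libraries of a group was 0.14 in shFOXM1 and 0.04 in shControl.

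Coding length went only weakly with the difference. The correlation across the 82 genes of log2 fold change with codon number was r = -0.29 and rho = -0.23, a description over genes that share the same 4 libraries and are not replicates. Of the 42 genes at or above the median of 151 codons, 30 were lower by sign, with a median log2 fold change of -0.07. Of the 40 below it, 24 were lower by sign, with a median of -0.02. The correlation of shFOXM1 2 minus shFOXM1 1 with codon number was r = -0.28 and rho = -0.09, and of shControl 2 minus shControl 1 r = -0.05 and rho = -0.07.

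Other large subunit genes were lower in both shFOXM1 libraries. RPL23, a protein of the interface between the subunits that, with RPL5 and RPL11, is known to bind MDM2, had 103 and 88.7 FPKM in shFOXM1, against 123 and 128 FPKM in shControl. RPL21, another 60S protein, had 152 and 159 FPKM in shFOXM1, against 188 and 190 FPKM in shControl. Both shFOXM1 libraries were below both controls in each gene. The log2 fold changes were -0.39 for RPL23 (limma adjusted p = 0.226) and -0.28 for RPL21 (limma adjusted p = 0.241). That of RPL23 was -0.28 without shFOXM1 2 and -0.49 without shFOXM1 1, where it was called (limma adjusted p = 0.0155).

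The P stalk recruits the elongation factors to the ribosome. Its base, RPLP0, had 661 and 665 FPKM in shFOXM1, against 753 and 749 FPKM in shControl. The acidic protein RPLP1 had 341 and 329 FPKM in shFOXM1, against 342 and 354 FPKM in shControl, and RPLP2 had 253 and 293 FPKM in shFOXM1, against 265 and 255 FPKM in shControl. RPLP0 was below the controls with very little spread, the RPLP1 groups were separated only narrowly and the RPLP2 groups overlapped. RPL12, which binds the stalk base, was higher, with 352 and 343 FPKM in shFOXM1, against 310 and 278 FPKM in shControl. The log2 fold changes were -0.18 for RPLP0, -0.06 for RPLP1, 0.07 for RPLP2 and 0.24 for RPL12, and the smallest limma adjusted p of the 4 genes was 0.311. The RPLP1 value took a positive sign (0.00 on the log2 scale) under quantile normalization.

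RPL5 and RPL11 form the 5S particle with the 5S RNA and, when assembly stalls, bind MDM2 and stabilise p53. RPL5 had 314 and 285 FPKM in shFOXM1, against 343 and 330 FPKM in shControl, lower in both libraries. RPL11 had 308 and 342 FPKM in shFOXM1, against 315 and 289 FPKM in shControl, with overlapping groups. Their log2 fold changes were -0.17 and 0.11, with limma adjusted p = 0.432 for RPL5 and 0.64 for RPL11. Both moved with the library left out: RPL5 was at -0.10 without shFOXM1 2 and was called at -0.24 without shFOXM1 1 (limma adjusted p = 0.0407), and RPL11 was at 0.03 without shFOXM1 2 and 0.18 without shFOXM1 1.

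The genes of the nascent chain exit tunnel were of both signs. Of 8 genes (RPL4, RPL17, RPL39, RPL23A, RPL19, RPL26, RPL31 and RPL35), 4 were lower and 4 higher by sign, with a median log2 fold change of -0.02. Both shFOXM1 libraries lay below both controls in 3 of them (RPL4, RPL17 and RPL26) and above in 1 (RPL31). That is 37.5% and 12.5%, against 25.9% and 27.3% of all genes tested. RPL31 had 113 and 117 FPKM in shFOXM1, against 109 and 107 FPKM in shControl, above both controls. RPL19 (657 and 752 FPKM in shFOXM1, against 711 and 735 FPKM in shControl), RPL23A and RPL35 overlapped.

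Of the large subunit genes with both shFOXM1 libraries above both controls, RPL26L1 and RPL12 had the largest values, followed by RPL27 and RPL29. RPL27, a protein of the solvent side, had 403 and 405 FPKM in shFOXM1, against 328 and 384 FPKM in shControl. RPL29 had 406 and 436 FPKM in shFOXM1, against 396 and 375 FPKM in shControl. The shFOXM1 libraries were the higher in both genes, although the controls of RPL27 differed from each other by more than one of them differed from shFOXM1. The log2 fold changes were 0.18 and 0.13, with limma adjusted p = 0.441 for RPL27 and 0.53 for RPL29.

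In the small subunit RPS20, a protein of the head, had the lowest log2 fold change. It had 166 and 189 FPKM in shFOXM1, against 217 and 226 FPKM in shControl, and both shFOXM1 libraries were below both controls. The log2 fold change was -0.32 (SE 0.11; limma unadjusted p = 0.034, adjusted p = 0.249). RPSA, a protein at the back of the 40S subunit also known as the laminin receptor, had 436 and 407 FPKM in shFOXM1, against 500 and 505 FPKM in shControl, a log2 fold change of -0.25 (limma unadjusted p = 0.0415, adjusted p = 0.262). These were the 2 small subunit genes under an unadjusted p of 0.05. RPS20 was called without shFOXM1 2 (log2 fold change -0.42, limma adjusted p = 0.0453) and was at 0.0506 without shFOXM1 1.

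RPS6, the substrate of the S6 kinases, had 223 and 208 FPKM in shFOXM1, against 252 and 249 FPKM in shControl. RPS27A, made as a fusion with ubiquitin, had 261 and 251 FPKM in shFOXM1, against 289 and 292 FPKM in shControl. Each was lower in both shFOXM1 libraries, with log2 fold changes of -0.22 for RPS6 and -0.18 for RPS27A and limma adjusted p = 0.322 for RPS6 and 0.369 for RPS27A. At the mRNA entry, RPS3 had 354 and 377 FPKM in shFOXM1, against 399 and 401 FPKM in shControl, and RPS2 overlapped.

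Among the platform and mRNA exit genes RPS14, RPS26, RPS28 and RPSA, 2 were lower and 2 higher by sign. The groups were separate for RPS26 and RPSA, both lower, and overlapped for the other genes. RPS26 had 95.2 and 86.3 FPKM in shFOXM1, against 102 and 103 FPKM in shControl. RPS14 had 181 and 216 FPKM in shFOXM1, against 185 and 183 FPKM in shControl, so that 1 shFOXM1 library was below and the other above both controls. RPS15, part of the decoding region, was nearly level, with 319 and 319 FPKM in shFOXM1, against 321 and 322 FPKM in shControl, and its log2 fold change of -0.01 changed sign under quantile normalization.

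RPS25, a protein of the head used by some viral internal ribosome entry sites, had 469 and 623 FPKM in shFOXM1, against 534 and 537 FPKM in shControl. It lay on opposite sides of the controls in the 2 shFOXM1 libraries, and its log2 difference between them was 0.41. RPS18 had 704 and 767 FPKM in shFOXM1, against 700 and 670 FPKM in shControl, and RPS24 had 107 and 108 FPKM in shFOXM1, against 99.7 and 101 FPKM in shControl, each above both controls.

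Of 8 members that are mutated in Diamond-Blackfan anaemia (RPS19, RPS24, RPL35A, RPS26, RPS10, RPS7, RPL5 and RPL11), 6 were lower and 2 higher by sign, with a median log2 fold change of -0.09. RPS26, RPS7 and RPL5 were below both controls in both shFOXM1 libraries (37.5%) and RPS24 was above them (12.5%). Over all genes tested, 25.9% lay below and 27.3% above both controls, and 50.1% were lower by sign. RPS19, the gene most often affected, had 328 and 298 FPKM in shFOXM1, against 327 and 344 FPKM in shControl, and the groups overlapped. RPS7 had 151 and 139 FPKM in shFOXM1, against 166 and 162 FPKM in shControl.

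Leaving out a shFOXM1 library changed how many members were called. Without shFOXM1 1, limma called 21 members: 12 large subunit genes lower, 5 small subunit genes lower and 4 small subunit genes higher, where 14.5% of all genes tested were called lower and 11.3% higher. The large subunit genes called lower were RPL4, RPL39L, RPL22L1, RPL7, RPL3, RPL23, RPL32, RPL6, RPL15, RPL21, RPL5 and RPLP0, the small subunit genes called lower were RPSA, RPS6, RPS26, RPS7 and RPS27A, and RPS14, RPS25 and RPS27 were among the higher. Of 47 named members tested, 31 had a log2 fold change that turned its sign or moved by over 1.5 times when 1 of the shFOXM1 libraries was left out. Without shFOXM1 2, 2 members were called, RPL22L1 and RPS20, both lower, where 2.95% of all genes were called lower and 2.34% higher. Without either shControl library 0 members and 0 genes were called. The lone shFOXM1 library in such a fit is assumed to vary as the controls do.

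Levels differed far more between members than between groups. Per kilobase, the median large subunit gene had 176 FPKM in shFOXM1 and 189 FPKM in shControl, and the median small subunit gene 256 FPKM in shFOXM1 and 290 FPKM in shControl. These small subunit medians are the values of RPS27A alone, whereas the small subunit sum differed by -2.37%. RPL13A, known also for a role in translational silencing outside the ribosome, was the highest, with 896 and 1046.5 FPKM in shFOXM1, against 1043 and 1033 FPKM in shControl. RPS2 followed with 955 and 985 FPKM in shFOXM1, against 971 and 946 FPKM in shControl. Neither gene's groups were separated. RPL41, RPL7A, RPL19, RPS18 and RPLP0 came lower, all between 657 and 767 FPKM in each of the 4 libraries, and the library values of most neighbours in this order overlapped.

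A second view of level divides by coding length, since the deposited gene lengths join the exons of all transcripts of a gene. The reads are those of all exons of a gene, bases outside the coding part included, so a short coding part raises this value. It was scaled to 1000000 reads in each library and averaged over shControl. RPL41, which encodes the smallest ribosomal protein, was far above the rest at 33.3 reads per codon, and RPL13A followed at 12.1. RPL41 has only 75 coding bases in a deposited length of 1088, so its place on this scale rests largely on that divisor. The medians on this scale were 4.47 in shFOXM1 and 4.42 in shControl for the large subunit and 4.76 in shFOXM1 and 5.53 in shControl for the small subunit. The small subunit medians fall on different genes, RPS15 in shFOXM1 and RPS29 in shControl, so their gap is no difference within genes. RPS15 had 4.76 in shFOXM1 and 4.75 in shControl, and RPS29 had 5.60 and 5.53. The small subunit share of reads differed by -2.58%. Order on the 2 scales was related with rho = 0.64 over 82 genes, which share their libraries and reads. RPS29, with 168 coding bases in a deposited length of 9845, ranked 74 of the 84 members by FPKM and 32 by reads per codon.

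**Figure D3:**
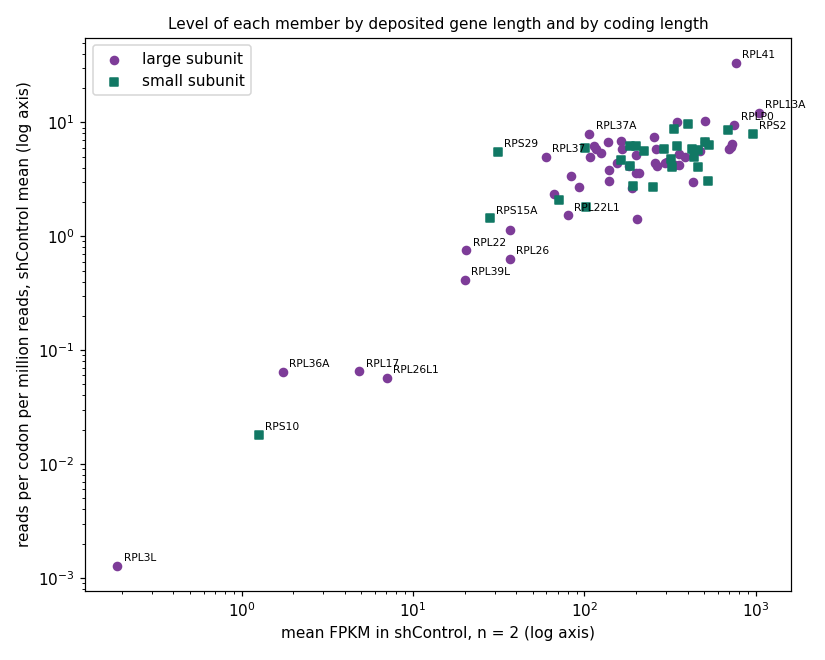
Mean FPKM in shControl (n = 2, log axis) against mean reads per codon in shControl, scaled to 1000000 reads (log axis) for 80 members; circles are large and squares small subunit genes, and RPL10L, with 0 reads, is among those not drawn. Most members form a band above 50 FPKM, RPL41 stands above it at 33.3 reads per codon on that scale, and RPS10, RPL36A, RPL17 and RPL26L1 lie far below.

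A few members were low in every library. RPS10 had 1.52 and 0.835 FPKM in shFOXM1, against 1.28 and 1.24 FPKM in shControl, and shares 39.4% of its exon bases with the same-strand readthrough gene RPS10-NUDT3. RPL17 had 4.05 and 4.10 FPKM in shFOXM1, against 4.63 and 5.11 FPKM in shControl, and shares 32.7% with other genes of its strand, among them RPL17-C18orf32. These levels are therefore uncertain, because the way in which reads in shared exons or near-identical copies were assigned is not given in the sources used here. Pseudogenes named after RPS10 held 75.3% of the reads of gene and pseudogenes together.

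For the other members the copies weighed less. The table holds 1144 pseudogene rows named after members, 289 of them with reads, and they took 2.94% and 3.04% of the reads of members and pseudogenes in shFOXM1, against 3.02% and 3.03% in shControl. Pseudogenes held 15.4% of the joint reads for RPL7, 15.3% for RPL39, 15.2% for RPL26, 15.1% for RPS2 and 10.9% for RPS7. On the opposite strand 30 members share exon bases with another gene, up to 52.7% for RPL10, and no source used here says whether counting used strand. Without the 17 members with at least 5% of joint reads in pseudogenes or at least 25% of exon bases shared on the same strand, the large subunit split was 24 lower and 14 higher and the small subunit split 18 lower and 9 higher. The members sit on 21 chromosomes, and 28 of them host 60 annotated small nucleolar RNA genes.

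RACK1 and FAU, ribosomal proteins outside the naming rule, were slightly higher by sign. RACK1, a scaffold on the 40S head, had 384 and 408 FPKM in shFOXM1, against 382 and 385 FPKM in shControl. FAU, a fusion with a 40S protein, had 135 and 174 FPKM in shFOXM1, against 138 and 143.5 FPKM in shControl. The groups overlapped in each.

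The mitochondrial ribosomal proteins, which build the separate ribosome of that organelle, leaned the other way. Of 76 tested, 34 were lower and 42 higher by sign, with a median log2 fold change of 0.03. Both shFOXM1 libraries lay below both controls in 12 and above in 26, which is 15.8% and 34.2%, beside 42.7% and 11.0% of the cytosolic members and 25.9% and 27.3% of all genes tested. The difference between the lists was not tested. MRPL33 had 9.79 and 10.7 FPKM in shFOXM1, against 6.78 and 5.64 FPKM in shControl, the highest log2 fold change of the list at 0.65 (limma adjusted p = 0.183).

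Among 57 tested ribosome biogenesis factors 37 were lower and 20 higher by sign (median log2 fold change -0.06), and 0 were called. Both shFOXM1 libraries lay below both controls in 16 (28.1%) and above in 11 (19.3%), against 25.9% and 27.3% of all genes tested. RRP9, a protein of the U3 particle that processes ribosomal RNA, had 32.2 and 29.5 FPKM in shFOXM1, against 43.9 and 44.8 FPKM in shControl, and nucleolin (NCL) had 264 and 224 FPKM in shFOXM1, against 312 and 318 FPKM in shControl. NOP58, of the box C/D particles, was higher, with 91.7 and 77.6 FPKM in shFOXM1, against 63.4 and 65.3 FPKM in shControl. Of 15 genes of the RNA polymerase I machinery 9 were lower and 6 higher by sign, with a median of -0.12. Both shFOXM1 libraries lay below both controls in 7 (46.7%) and above in 3 (20%). UBTF, at 51.2 and 49.5 FPKM in shFOXM1, against 60.2 and 67.9 FPKM in shControl, was below both controls, as were TTF1 and TAF1A. RRN3, the polymerase I initiation factor, was above both controls at 32.3 and 29.4 FPKM in shFOXM1, against 21.3 and 22.2 FPKM in shControl.

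Of 13 tested elongation factors and other TOP messenger RNAs, 9 were lower and 4 higher by sign, with 6 (46.2%) below and 1 (7.69%) above both controls, against 25.9% and 27.3% of all genes tested. NAP1L1, a histone chaperone, had 46.4 and 44.1 FPKM in shFOXM1, against 70.6 and 68.2 FPKM in shControl, and PABPC1, the poly(A)-binding protein, had 443 and 365 FPKM in shFOXM1, against 529 and 518 FPKM in shControl. In the list of initiation factors 13 of 32 were lower and 19 higher, with a median of 0.02. None of these genes passed the limma test over all genes, and the smallest adjusted p among NAP1L1, HNRNPA1, GAS5 and PABPC1 was 0.176.

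The regulators of TOP translation and growth were of both signs, 7 lower and 9 higher of 16 tested, with a median of 0.07. Both shFOXM1 libraries lay below both controls in 4 (25%) and above in 8 (50%), against 25.9% and 27.3% of all genes tested. MTOR, the kinase upstream of the TOP control, had 16.3 and 16.2 FPKM in shFOXM1, against 11.5 and 10.5 FPKM in shControl, and was above both controls with a log2 fold change of 0.52 (limma adjusted p = 0.183). RPS6KB2, an S6 kinase, had 9.54 and 9.84 FPKM in shFOXM1, against 7.64 and 7.53 FPKM in shControl. MYC, a transcription factor that drives ribosome production, had 171 and 95.1 FPKM in shFOXM1, against 172 and 182 FPKM in shControl. It was low mainly in shFOXM1 2, as were RPL4, RPL3 and RPL7. Of the tested members, 48 were higher and 34 lower in shFOXM1 2 than in shFOXM1 1. A link between MYC and the members was not tested. Genes of ribosome rescue and quality control were split evenly, 5 lower and 5 higher of 10.

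**Figure D4:**
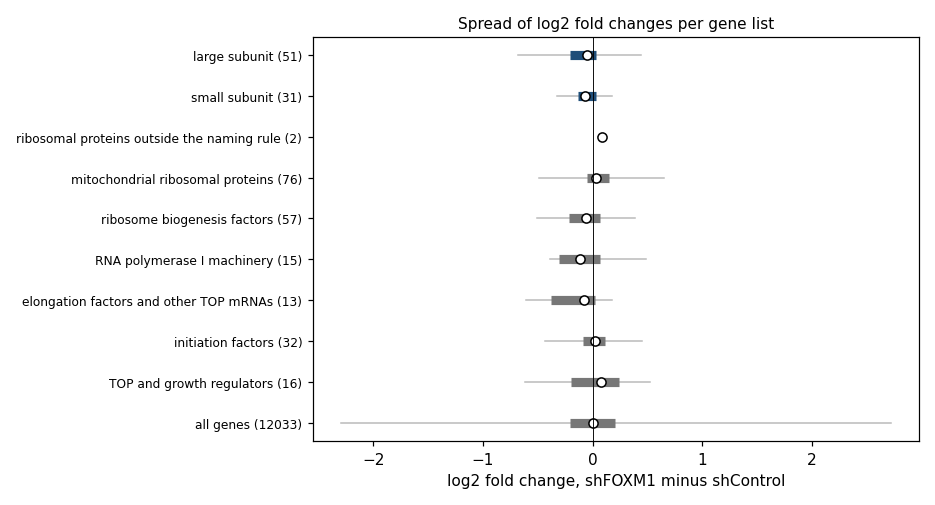
Log2 fold change of shFOXM1 minus shControl for each gene list, with the number of genes tested in brackets. Circles are medians, thick bars run from the lower to the upper quartile and thin lines from the lowest to the highest gene. The medians of the large (-0.06) and small (-0.07) subunit lie just below 0 and that of the mitochondrial ribosomal proteins (0.03) just above.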

How the data were processed

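RNA sequencing was compared between 2 shFOXM1 and 2 shControl libraries of Myla cells. The deposited table gives FPKM per gene; its identifiers match GENCODE 29 in 58735 of 58735 rows, its gene lengths equal the joined exon length there for 58724, and values times length are whole reads within 0.001 read for 100% of values. No aligner or counter is named in the labels used here. GRCm38 and mm10, both mouse builds, stand in the submitters' processing notes, although the gene identifiers are human. Precision is limited by 2 libraries a group, and intervals for counting were not used.

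Differences (shFOXM1 minus shControl) were fitted with limma 3.58.1 in R 4.3.3 (trend, two-sided) on log2(FPKM + 1), after a filter of at least 1 FPKM in at least 2 libraries, without a replicate block. The added 1 understates fold changes of low genes. The fit was tested on simulated data. Sums used an exact permutation test. Alternatives were pseudocounts of 0.1 and 0.01, other filters, 3 other scalings, no trend, voom on recovered reads, a replicate block, each library left out, and leaving out paralogs or members with shared reads (the last, and all alternatives for the family sum, chosen after seeing the data). Tables were made with Python 3.11.15, pandas 2.3.3 and numpy 2.4.6. Genes named in full were the 4 highest per subunit, the 4 largest separate differences per subunit and direction with a mean of at least 5 FPKM, role groups and paralog pairs; other lists gave up to 4 genes with separate groups and the smallest p. Members and lists were chosen with earlier results of these data known. Some genes are counted in the family totals but not reported here by name.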

Additional observations from a re-analysis of the deposited data

How the results depend on the processing

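Of 655 values of 47 named members under the alternatives, 616 stayed on the same side of 0 and of the threshold, 17 passed it and 22 changed sign, in 16 genes. No scaling moved the median of all genes by over 0.1 on the log2 scale. Quantile normalization moved the large subunit median to -0.037 and the small to -0.0043, and the summed levels to -1.57% (large), 3.34% (small) and 0.466% (family, an alternative chosen after seeing the data); scaling to recovered reads moved the large subunit sum to -4.23%. Without members with shared reads the large subunit median was -0.037. With one library left out the large subunit median ranged from -0.078 to -0.047 and the small from -0.12 to -0.015, lower calls from 0 to 12 and 0 to 5, higher calls in the small subunit from 0 to 4, and small subunit genes higher by sign from 5 to 14.

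With one library left out, the log2 fold changes of members that changed sign ranged from -0.031 to 0.065 for RPL10, from -0.21 to 0.012 for RPL13A, from -0.14 to 0.056 for RPL19, from -0.028 to 0.036 for RPL23A, from -0.032 to 0.10 for RPL35, from -0.049 to 0.017 for RPL35A, from -0.14 to 0.15 for RPL36AL and from -0.0088 to 0.051 for RPL7A. They ranged from -0.039 to 0.17 for RPLP2, from -0.30 to 0.16 for RPS10, from -0.019 to 0.23 for RPS14, from -0.0052 to 0.040 for RPS2, from -0.19 to 0.22 for RPS25 and from -0.053 to 0.14 for RPS28. Under quantile normalization RPLP1 was at 0.0014 and RPS15 at 0.045. RPS15 was at 0.0030 scaled to recovered reads and at 0.0031 with voom, and RPL23A at -0.00085 scaled by the median of ratios. The cause was not tested.

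The labels number the libraries 1 and 2 in each group. Deviations of shFOXM1 1 and shControl 1 from their group means correlated at only 0.04 over the 12033 genes tested. With 2 libraries a group, those of the libraries numbered 2 mirror them and add nothing. The numbers were not taken as pairs. With a replicate block the medians were -0.06 and -0.07 and 0 members were called, as without it. edgeR and DESeq2 were planned only for a table of raw counts and were not run; the test on recovered reads was voom. Depth is low for RPL3L, RPL10L, RPS10, RPL36A, RPL26L1 and RPL17, among others. The permutation test of 2 against 2 libraries cannot go below 0.333.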
